A study of Mus musculus with 13 samples.

Results

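The 9 genes described here encode transcription regulators that mark upper cortical layers and callosal projection neurons: Cux1, Cux2, Pou3f1, Pou3f2, Pou3f3, Lhx2, Lmo4, Rorb and Mef2c. The count table spells them CUX1, CUX2, POU3F1, POU3F2, POU3F3, LHX2, LMO4, RORB and MEF2C. They were taken by symbol from a table of 35972 gene rows and followed through all 10 RNA libraries. No measured value entered that rule, except that for a symbol with more than 1 row the row of larger total was used. The members themselves were chosen with earlier results of these data known. The series studied Fezf2, a zinc-finger transcription factor that specifies deep-layer, subcortically projecting neurons, by RNA sequencing and, in a neuroblastoma line, by chromatin immunoprecipitation.

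There were 4 RNA groups. For the 5 Fezf2 libraries, CD-1 embryos were electroporated in utero at E16.5 (embryonic day) with Fezf2 and Gfp plasmids, and fluorescent cells were sorted at postnatal day 3 (P3). For the 3 GFP libraries, CD-1 embryos of the same age received the Gfp plasmid and cells were sorted in the same way. All 8 were amplified with the NuGEN Ovation V2 kit. The other 2 libraries, 1 labelled Fezf2 knockout and 1 labelled wild type, were made from neocortex, taken whole at postnatal day 0 (P0) from C57BL6/J mice, with a TruSeq mRNA kit. In the knockout, a floxed Fezf2 allele was removed from cortical progenitors and their descendants by Cre recombinase under Emx1 control, and both titles carry the name of that Cre line. The sort selected electroporated cells by fluorescence and not by a neuronal marker. The labels do not say whether replicates came from separate animals or litters, so the p-values below measure the spread between these libraries, which may be partly technical.

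Projection neurons of the neocortex are born in sequence, deep layers first and upper layers last. Cux1 and Cux2, which carry Cut repeats and a homeodomain, mark upper-layer neurons and act on their dendrites and synapses. The class III POU factors Pou3f1 (Oct6), Pou3f2 (Brn2) and Pou3f3 (Brn1) overlap in late progenitors and in the neurons made from them, where Brn1 and Brn2 together support production and migration of upper-layer cells. Lhx2 is a LIM-homeodomain factor of cortical identity, and Lmo4 is a LIM-only protein that binds LIM-domain cofactors without binding DNA itself. Rorb is an orphan nuclear receptor of layer 4, and Mef2c is a MADS-box factor of neuronal migration and synapse number. Electroporation late in neurogenesis labels mainly cells bound for upper layers.

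The upstream sequences of 3 members are shown because Pou3f3 had the smallest p of the 9 with Fezf2, Pou3f2 is its nearest relative, and Rorb was the only member with a higher mean in the Fezf2 libraries. Each is the 250 bases before the RefSeq gene start in GRCm38.p6, 5′ to 3′ on the gene's strand. Pou3f3 lies at chr1:42695518-42695767 on the plus strand, Pou3f2 at chr4:22488367-22488616 on the minus strand and Rorb at chr19:19111197-19111446 on the minus strand. Capitals mark the letters CCAAT, or ATTGG, the same box read on the other strand.
Pou3f3: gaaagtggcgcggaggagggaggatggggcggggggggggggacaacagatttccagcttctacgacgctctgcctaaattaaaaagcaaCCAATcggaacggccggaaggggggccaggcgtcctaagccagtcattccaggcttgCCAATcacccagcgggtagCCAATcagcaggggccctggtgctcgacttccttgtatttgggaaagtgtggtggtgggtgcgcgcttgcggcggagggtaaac
Pou3f2: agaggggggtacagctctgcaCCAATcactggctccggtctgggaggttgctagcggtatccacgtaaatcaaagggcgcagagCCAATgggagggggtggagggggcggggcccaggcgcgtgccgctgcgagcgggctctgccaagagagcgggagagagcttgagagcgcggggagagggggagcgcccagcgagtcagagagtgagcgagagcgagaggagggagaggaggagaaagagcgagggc
Rorb: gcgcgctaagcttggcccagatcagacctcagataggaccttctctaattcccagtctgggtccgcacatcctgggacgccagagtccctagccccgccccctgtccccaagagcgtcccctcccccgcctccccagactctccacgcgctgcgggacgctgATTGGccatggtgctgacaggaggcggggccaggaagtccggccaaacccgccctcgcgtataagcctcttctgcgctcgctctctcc

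RefSeq promoter entries were held for 8 of the 9 members, all but Pou3f1, with 15 start sites in total. These windows held a median of 66.0% G and C, from 33.6% to 82.4%, and a median of 18 CpG, against 52.4% and 6 over all 32851 windows of this length. The letters were searched on both strands, and overlapping matches of different motifs were each counted. The CCAAT box, which was added to the search after the sequences had been seen, was in 5 of the 15 member windows and in 33.8% of all windows. Pou3f3 held 3 such boxes, a number reached in 2.79% of all windows. Pou3f2 and 1 of the Mef2c windows held 2, reached in 10.1%. These were the highest numbers among the 15 windows, so the shares are no chance level for them. The octamer ATGCAAAT, read by POU factors, was in 0 of the 15 windows (1.60% of all). TAATTA, a core read by LIM homeodomains, was in 1, at Mef2c (4.84% of all). ATCGAT, a core of Cut repeats, was in 1, at Cux2 (0.728%), and AGGTCA, the half-site of ROR receptors, in 2, both at Mef2c (14.02%). These matches describe letters only. The deposited peaks use the mm9 build and were not assigned to these windows.

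The introduced gene was checked first. In replicate order, here and below, Fezf2 stood at 142, 138, 85.1, 151 and 101 CPM (counts scaled to library size by the trimmed mean of M-values, TMM) across the Fezf2 libraries, against 8.62, 12.04 and 3.54 across the GFP libraries. Every library labelled Fezf2 was far above every GFP library, with 3.91 on the log2 scale, SE 0.33 (adjusted p = 6.27e-05 by edgeR). The table does not separate plasmid from endogenous transcripts. At P0, Fezf2 was at 53.5 CPM in the library labelled knockout and 51.4 in wild type, a log2 ratio of 0.06 (95% counting interval −0.09 to 0.21). Counts over the whole gene thus did not separate these libraries, and the labels do not name the exons that the deletion removes. Sorted libraries held 3245932 to 5801839 counts, of which 21.0% to 27.1% were mitochondrial, and the P0 libraries held 17856211 and 11818437. Mean correlation of a sorted library with the other 7 was 0.904 to 0.938, lowest for Fezf2 replicate 1.

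No member passed edgeR's quasi-likelihood test between Fezf2 and GFP cells at an adjusted p under 0.05. Background was low: of 13754 genes tested, 0.0145% passed in either direction, 1 gene up and 1 down, and 0.00727% passed as lower. Fold changes of 8 of the 9 members lay below 0, where 47.1% of all genes did. Their median log2 fold change was −0.33, against 0.02 for all genes, whose quartiles were −0.20 and 0.27. Only Pou3f3 had an unadjusted p under 0.05. That level was reached by 6.55% of all genes, 901 in number, and by 2.24% with a lower value. Pou3f3 was also the only member whose 5 Fezf2 libraries all lay outside the range of the 3 GFP libraries, a separation seen for 4.71% of all genes and, in the lower direction, for 2.46%.

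**Figure D1:**
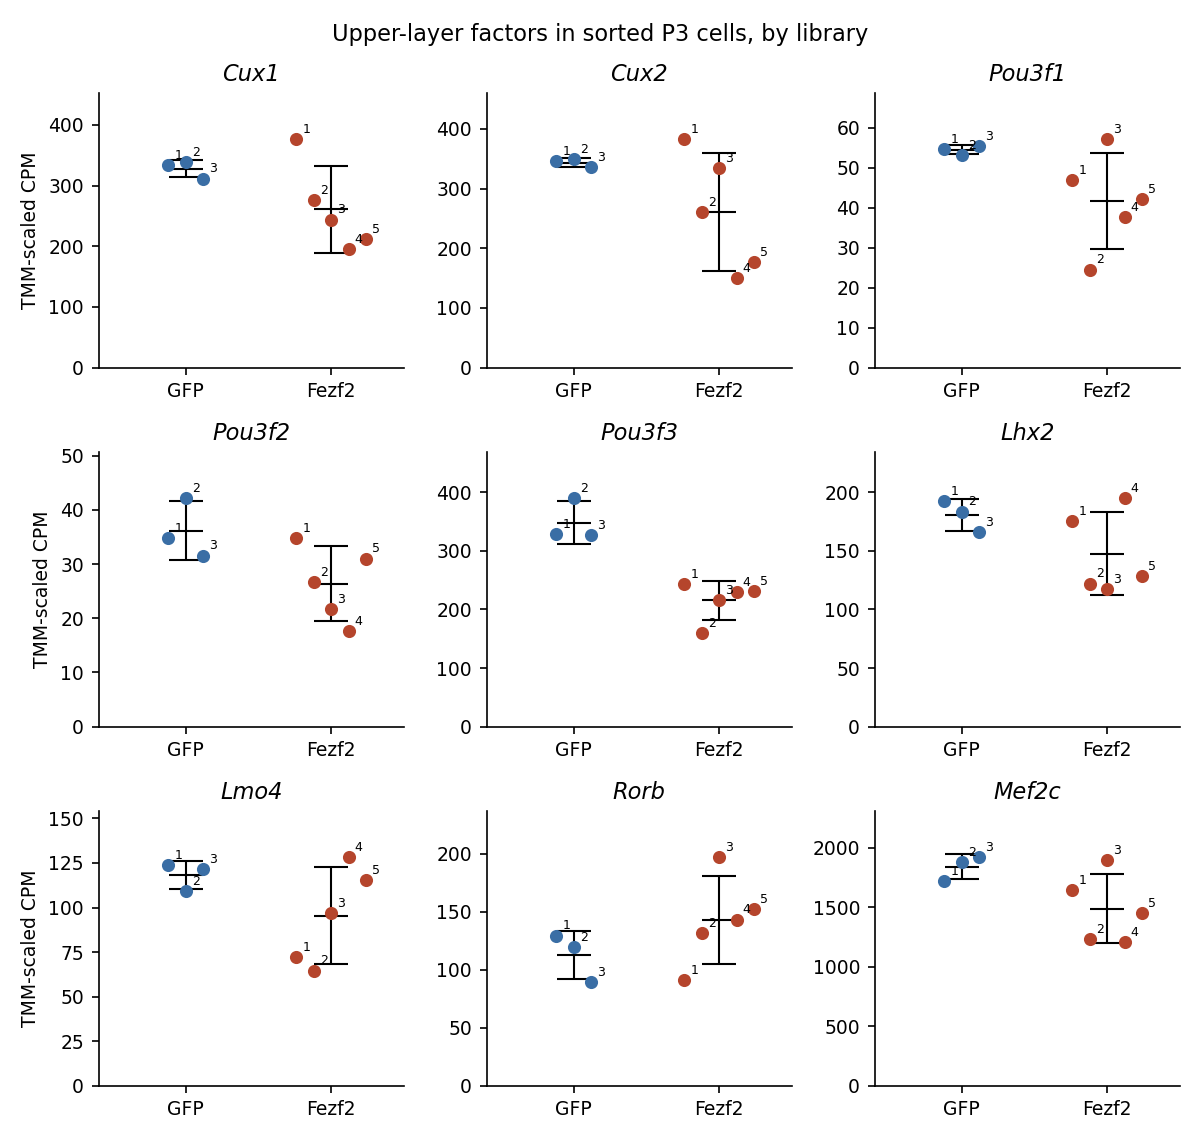
TMM-scaled CPM (linear axes from 0) of each member in the 3 GFP and 5 Fezf2 sorted P3 libraries. Points are libraries with their replicate numbers, and bars give the mean ± SD. Only Pou3f3 shows groups that do not overlap, and GFP points are tightly placed for Cux1, Cux2, Pou3f1 and Mef2c, where Fezf2 points spread widely.

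Among the POU factors, Pou3f3 had the lowest p. Its level was 243, 159, 215, 229 and 231 CPM across the Fezf2 libraries, against 328, 390 and 326 CPM across the GFP libraries. All 5 Fezf2 values lay below the lowest GFP value, and Fezf2 replicate 2 was the lowest of all. The means were 216 ± 33.0 (SD, n = 5) and 348 ± 36.0 (SD, n = 3) CPM, a change of −38.1%. On the log2 scale this was −0.69 (SE 0.15, 95% interval −1.02 to −0.37), with an unadjusted p = 0.000395 from edgeR, rank 6 among all genes, and an adjusted p = 0.719. The call depended on the tool and the filter, which also set how many genes were adjusted over. DESeq2 called 6 genes, where 4376 had an adjusted p, and edgeR with no low-count filter called 117 of 26328. With DESeq2 the log2 fold change of Pou3f3 was −0.69 and the adjusted p = 0.0188. With no low-count filter in edgeR it was −0.70 with an adjusted p = 0.0142. Over all 18 alternatives the log2 fold change ran from −0.78 to −0.56 and the adjusted p from 0.0142 to 0.999. In RefSeq the Pou3f3 locus overlaps Gm46091, and strand handling in the counts is not given, so reads may be shared.

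Pou3f2 and Pou3f1 were less abundant in counts. Pou3f2 was at 34.8, 26.6, 21.6, 17.6 and 31.0 CPM across the Fezf2 libraries, against 34.8, 42.1 and 31.6 across the GFP libraries. Fezf2 replicate 1 stood inside the GFP range and the other 4 below it. The means were 26.3 ± 6.92 (SD, n = 5) and 36.2 ± 5.42 (SD, n = 3), with −0.46 on the log2 scale, SE 0.25 (adjusted p = 0.796 by edgeR). Pou3f1 was at 46.9, 24.5, 57.1, 37.6 and 42.1 CPM across the Fezf2 libraries, against 54.7, 53.2 and 55.4 CPM across the GFP libraries. Its GFP values almost coincided, 4 Fezf2 values were below them and replicate 3 was above. Its means were 41.6 ± 12 (SD, n = 5) and 54.4 ± 1.15 (SD, n = 3), −0.39 on the log2 scale, SE 0.23 (adjusted p = 0.811 by edgeR). The intervals of both genes included 0, from −0.99 to 0.07 for Pou3f2 and from −0.88 to 0.11 for Pou3f1.

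Pou3f1 stands on 2 rows of the count table, ENSMUSG00000090125, used here, and ENSMUSG00000078236. Both rows held the same count in each of the 8 sorted libraries, the only such pair among 6626 rows with at least 50 counts in every sorted library. Both were listed at 0 in the 2 P0 libraries. Of those 6626 rows, 72 were at 0 in both P0 libraries, among them 10 mitochondrially encoded genes, so a 0 there is not read as absence of the transcript. Cux2 also has a smaller second row, with 134 to 427 counts in the sorted libraries and 0 at P0, which was left out.

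The Cut-homeodomain genes had much the same pattern over the libraries. Cux2 was at 383, 260, 334, 150 and 177 CPM across the Fezf2 libraries, against 346, 349 and 336 CPM across the GFP libraries. Replicates 4 and 5 held less than any other library, replicate 3 lay just under GFP and replicate 1 was the highest of all 8. The means were 261 ± 99.4 (SD, n = 5) and 344 ± 6.97 (SD, n = 3), with −0.40 on the log2 scale, SE 0.24 (95% interval −0.92 to 0.12, adjusted p = 0.811 by edgeR). Cux1 was at 377, 276, 244, 196 and 212 CPM across the Fezf2 libraries, against 334, 339 and 312 CPM across the GFP libraries. Again Fezf2 replicate 1 was above every GFP library and the other 4 were below. Means of 261 ± 71.6 (SD, n = 5) and 328 ± 14.6 (SD, n = 3) gave −0.33 on the log2 scale, SE 0.19 (95% interval −0.73 to 0.06, adjusted p = 0.796 by edgeR).

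Lhx2 and Lmo4 overlapped between the groups. Lhx2 was at 175, 122, 117, 195 and 128 CPM across the Fezf2 libraries, against 192, 184 and 166 CPM across the GFP libraries. Fezf2 replicate 4 was the highest of the 8, replicate 1 was within the GFP range, and replicates 2, 3 and 5 were below. The means were 148 ± 35.2 (SD, n = 5) and 181 ± 13.5 (SD, n = 3), −0.29 on the log2 scale, SE 0.18 (adjusted p = 0.812 by edgeR). Lmo4 was at 72.2, 64.6, 96.8, 128 and 115 CPM across the Fezf2 libraries, against 124, 109 and 121 CPM across the GFP libraries. Here replicates 1 and 2 were lowest and replicate 4 highest. The means were 95.4 ± 27.2 (SD, n = 5) and 118 ± 7.82 (SD, n = 3), −0.31 on the log2 scale, SE 0.21 (adjusted p = 0.822 by edgeR).

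Rorb, the layer 4 nuclear receptor, had a higher mean with Fezf2. It was at 90.8, 132, 197, 143 and 152 CPM across the Fezf2 libraries, against 129, 119 and 89.1 CPM across the GFP libraries. Replicates 2 to 5 were above every GFP library, replicate 2 only just, and replicate 1 sat near the lowest GFP value. Means of 143 ± 38.3 (SD, n = 5) and 113 ± 21.0 (SD, n = 3) gave 0.34 on the log2 scale, SE 0.21 (95% interval −0.11 to 0.80, adjusted p = 0.813 by edgeR). The size of this difference rested on single libraries, at 0.19 without Fezf2 replicate 3 and 0.20 without GFP replicate 3. Mef2c was the most abundant member, at 1643, 1233, 1900, 1208 and 1453 CPM across the Fezf2 libraries, against 1721, 1877 and 1922 CPM across the GFP libraries. Replicate 3 matched the GFP libraries and the other 4 were below them. Its means were 1487 ± 291 (SD, n = 5) and 1840 ± 106 (SD, n = 3), −0.31 on the log2 scale, SE 0.16 (95% interval −0.66 to 0.04, adjusted p = 0.795 by edgeR).

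Leaving out 1 library moved 3 other members by over 1.5 times, each toward 0: Cux2 to −0.26 without Fezf2 replicate 4, and Pou3f1 to −0.25 and Lmo4 to −0.20 without Fezf2 replicate 2.

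Read by library, the lower values did not fall on one library alone. Taken against the GFP mean on the log2 scale, the median of the 9 members was −0.16 in Fezf2 replicate 1, −0.56 in replicate 2, −0.29 in replicate 3, −0.60 in replicate 4 and −0.37 in replicate 5. The 3 GFP libraries, which set that mean, lay between −0.07 and 0.03. Between 6 and 8 of the 9 members were below the GFP mean in each Fezf2 library. In GFP replicates 1, 2 and 3, the number was 3, 2 and 6, so GFP replicate 3 equalled Fezf2 replicates 3 and 4 in this count. Which genes were lowest differed: Lmo4 and Pou3f3 in replicate 1, Pou3f1 and Pou3f3 in replicate 2, Pou3f2 and Pou3f3 in replicate 3, and Cux2 and Pou3f2 in replicate 4. In replicate 5 the lowest were Cux2 and Cux1.

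Several marker lists of other cells differed between these libraries. The summed level of 13 astrocyte markers was 975, 3103, 1571, 4396 and 3120 CPM across the Fezf2 libraries, against 1660, 1214 and 1180 CPM across the GFP libraries. All 13 had fold changes above 0, their median being 0.70 on the log2 scale, and none passed. The 3 with the smallest p were the glutamate transporter Slc1a2, at a mean of 1136 against 462 CPM, Atp1b2 at 293 against 182, and Mlc1 at 69.3 against 35.1. Sums for 14 radial glia genes were 7902, 10419 and 7208 CPM in Fezf2 replicates 2, 4 and 5, above the 4310 to 5531 CPM of GFP, and 4225 and 4390 CPM in replicates 1 and 3. Oligodendrocyte-lineage genes summed to 829 to 1941 CPM with Fezf2 and 713 to 942 in GFP. Endothelial and pericyte genes summed to 91.7, 203, 57.8, 131 and 111 CPM across the Fezf2 libraries, against 58.1 to 72.5 in GFP. Sums for 12 cell cycle genes were 311, 748, 445, 839 and 723 CPM across the Fezf2 libraries, against 365 to 415 CPM in GFP. Fezf2 replicate 1 was thus below every GFP library and the other 4 above, with 10 of the 12 fold changes above 0. Sums for 12 interneuron genes were 154, 243, 378, 359 and 377 CPM across the Fezf2 libraries, against 196 to 260 CPM in GFP. Here replicate 1 was below GFP, replicate 2 within its range and replicates 3, 4 and 5 above, again with 10 of 12 fold changes above 0. No gene of these lists passed. Microglial genes were low throughout, at 22.1 to 68.3 CPM over 12 genes, with C1qa never above 0.590 CPM. Sums for 12 genes listed for glutamatergic identity were 5220, 4716, 3985, 4267 and 4347 CPM across the Fezf2 libraries, against 4958, 5214 and 5169 in GFP. Much of the GFP sums came from Nfix, Nfib and Nfia, with GFP means of 1792, 916 and 424 CPM. The part of other cells in these sums was not tested. Of the 12 fold changes in this list, 9 were below 0, with a median of −0.19 on the log2 scale, and none passed. The 3 with the smallest p were Zbtb18 at −0.56, Neurod2 at −0.69 and, in the other direction, Nfia at 0.53. In such pooled cells, fewer cells of a type and less RNA per cell cannot be told apart.

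**Figure D2:**
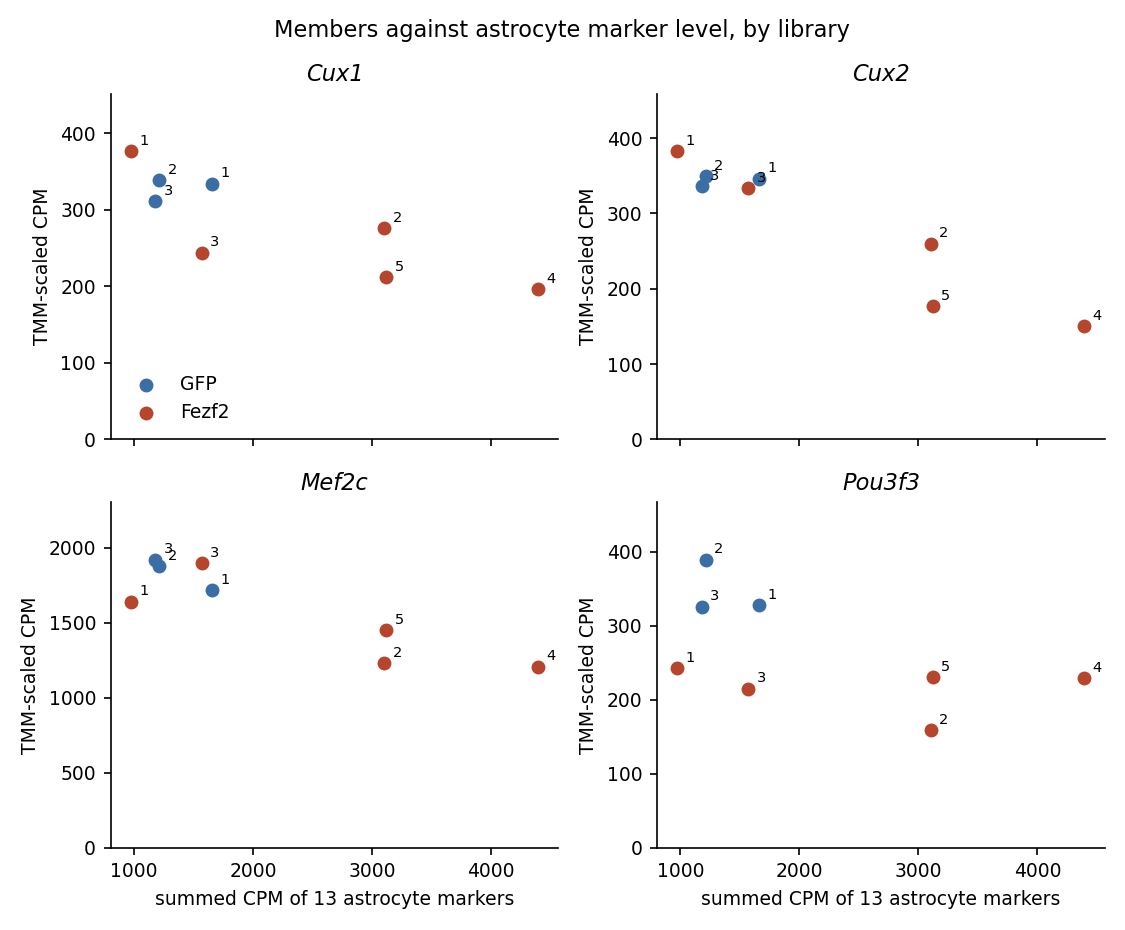
TMM-scaled CPM of Cux1, Cux2, Mef2c and Pou3f3 (y axes from 0) against the summed CPM of 13 astrocyte markers (x axis) in 8 sorted libraries, with replicate numbers. Fezf2 replicates 2, 4 and 5 lie to the right, at 3103 to 4396 CPM, and hold the 3 lowest Cux2 and Mef2c values. Pou3f3 is low in all 5 Fezf2 libraries, at either end of the axis.

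Fezf2 replicates 2, 4 and 5, the 3 above every GFP library in astrocyte markers, held the 3 lowest values of both Cux2 and Mef2c. Without these 3, an alternative chosen after seeing the data, Cux2 turned to a log2 fold change of 0.05, Mef2c stood at −0.07, Pou3f1 at −0.08 and Cux1 at −0.10. Pou3f3 stayed at −0.61 (edgeR adjusted p = 0.425), Lmo4 at −0.49, Pou3f2 at −0.38 and Lhx2 at −0.32, and Rorb at 0.35. These values rest on 2 Fezf2 libraries, and leaving out the lowest Cux2 and Mef2c libraries moves those genes toward 0 by construction. The 2 libraries also differed from each other: against the GFP mean, Cux1 was at 0.20 in Fezf2 replicate 1 and −0.43 in replicate 3. The part of glial RNA in the members' differences was not tested.

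**Figure D3:**
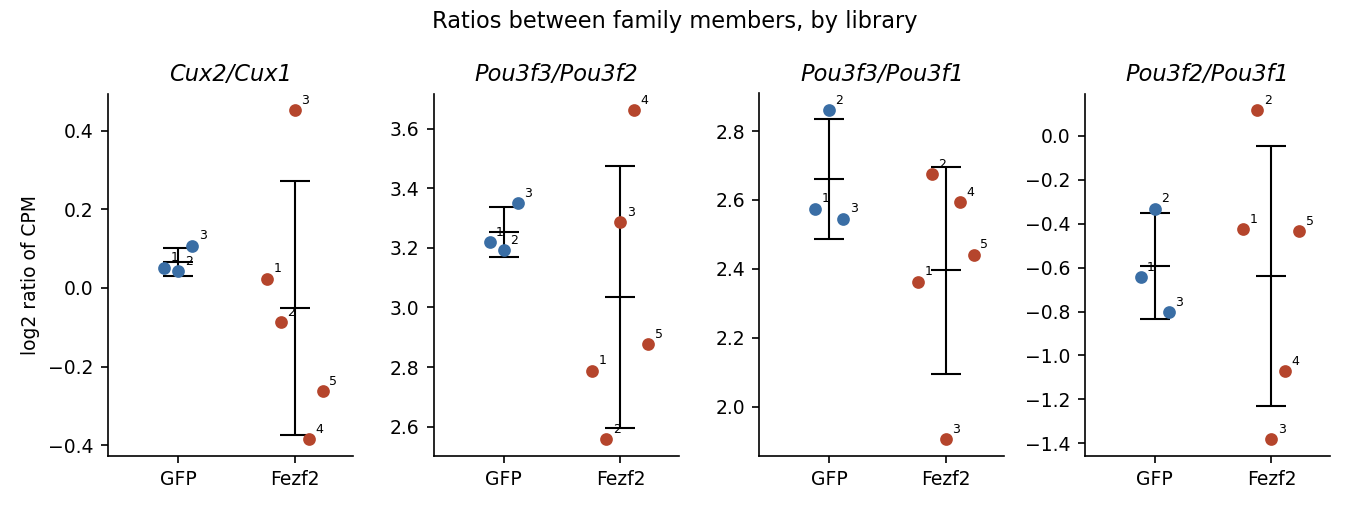
Log2 ratio of the CPM of 2 family members (y axes do not start at 0) in 3 GFP and 5 Fezf2 sorted libraries, with replicate numbers, and the mean ± SD. Groups overlap in all 4 panels, and the Cux2/Cux1 points spread over −0.38 to 0.45 with Fezf2 against 0.04 to 0.11 in GFP.

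Whether relatives differed in their response was asked with the log2 ratio of their CPM within each library, which does not depend on library scaling. The Cux2/Cux1 ratio was 0.02, −0.09, 0.45, −0.38 and −0.26 across the Fezf2 libraries, against 0.05, 0.04 and 0.11 across the GFP libraries. GFP libraries nearly coincided and the Fezf2 libraries lay on both sides of them. The mean difference was −0.12, with a Benjamini-Hochberg (BH) adjusted p = 0.714 over 4 ratios (exact two-sided permutation test, p = 0.536, SD 0.32 with n = 5 against 0.04 with n = 3). For Pou3f3/Pou3f2 the difference was −0.22 and for Pou3f3/Pou3f1 −0.27, each with a BH-adjusted p = 0.714 (exact permutation p = 0.429 and 0.214). For Pou3f2/Pou3f1 it was −0.05 (exact permutation p = 0.929, adjusted 0.929). The smallest p that 5 against 3 libraries can give is 0.0357. After adjustment over 4 ratios, a ratio alone at that p could not pass the limit of 0.05. The tests could therefore not call a single pair, and a p above the limit does not show that the relatives acted alike.

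Levels of 36 pairs of members were correlated over the 8 sorted libraries, with BH adjustment over the pairs. Exact two-sided permutation tests were used, and libraries shared sorting, amplification and scaling. Cux1 and Cux2 had r = 0.89 (p = 0.0033, adjusted 0.0594) and rho = 0.98 (p = 0.000397, adjusted 0.0143). Without Fezf2 replicates 4 and 5, the farthest from the median of Cux1, r was 0.61, so much of the linear relation rested on those libraries, and with the group means removed it was 0.86. Pou3f1 and Mef2c had r = 0.89 (p = 0.00109, adjusted 0.0393) and rho = 0.93 (p = 0.00223, adjusted 0.0402). Here r was 0.93 without Fezf2 replicates 2 and 4 and 0.83 with the group means removed.

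The genes most like each member over the 8 libraries were sought among 7009 genes with a mean of at least 20 CPM, and Pearson's r is given as a description. The highest r among so many genes over 8 libraries is high by selection alone, and no chance level was computed. Cux1 was nearest to Rab3c (0.98) and to Bcl11a (0.97), a zinc-finger factor of projection neurons, and Cux2 to Trim67 (0.99) and Sh3rf3 (0.96). Pou3f1 was nearest to Nipsnap1 (0.97) and Nudt5 (0.96), Pou3f2 to Zfyve27 (0.96), and Pou3f3 to Rbm18 (0.98) and Ssr2 (0.96). Lhx2 was nearest to Emc10 (0.92). Lmo4 was nearest to Vps28 (0.98) and Arl8a (0.98), Rorb to the calcium sensor gene Vsnl1 (0.98) and Gm21974 (0.96), and Mef2c to the thyroid hormone receptor gene Thra (0.99) and Stk32b (0.98). No member was among the 2 nearest genes of another.

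At P0 there was 1 library on each side, so the differences have no replicate check and no p is given. Intervals are 95% exact binomial intervals for counting error only. Rorb was at 63.4 CPM (1132 counts) in the library labelled knockout and 105 CPM (1237 counts) in wild type, a log2 ratio of −0.72 (interval −0.84 to −0.61). It was the only member past 1.5-fold, where 11.5% of 11218 genes with at least 5 CPM lay, 6.73% lower and 4.76% higher.

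Cux1 was at 315 CPM in the library labelled knockout and 249 CPM in wild type, a log2 ratio of 0.34 (0.28 to 0.41). Cux2 was at 358 and 279 CPM, with a log2 ratio of 0.36 (0.30 to 0.42). Both Cut-homeodomain genes were thus higher in that library by nearly the same amount. Pou3f2 was at 66.5 and 54.5 CPM, a log2 ratio of 0.29 (0.15 to 0.43), and Lhx2 at 241 and 212 CPM, a log2 ratio of 0.19 (0.11 to 0.26). Lmo4 was level, at 179.6 and 181.8 CPM, with a log2 ratio of −0.02 (−0.10 to 0.06). Pou3f3 was at 330.3 CPM and 392 CPM, a log2 ratio of −0.25 (−0.30 to −0.19), and Mef2c at 1533 and 1802 CPM, a log2 ratio of −0.23 (−0.26 to −0.21). Members of the POU family therefore lay on both sides of 0, and Pou3f1 was listed at 0 in both libraries. Marker sums in these libraries, labelled knockout first, were 736 and 795 CPM for astrocytes and 947 and 945 for interneurons. They were 5705 and 6250 for the glutamatergic list, and 305 and 230.3 for endothelial cells and pericytes. The part of these cells in the ratios was not tested.

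**Figure D4:**
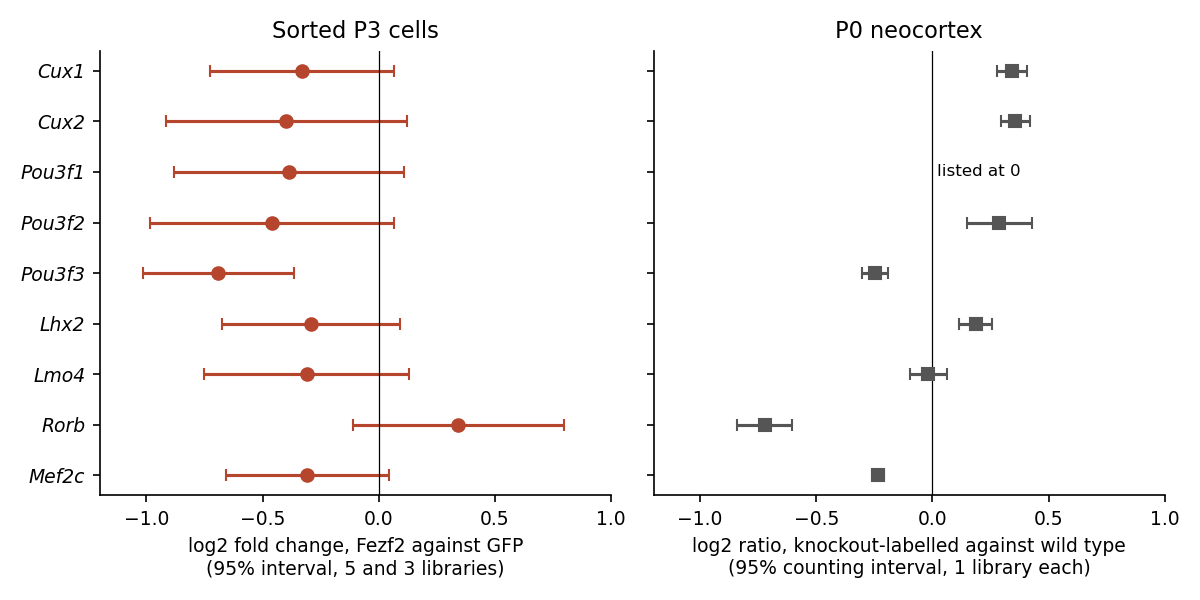
Left, log2 fold change of each member between 5 Fezf2 and 3 GFP sorted libraries with the 95% interval from edgeR, and right, log2 ratio between the P0 libraries labelled knockout and wild type, with 95% counting intervals for 1 library each. On the left 8 of 9 points lie below 0 and only the Pou3f3 interval leaves out 0; on the right 4 of 8 lie above 0 and Rorb is lowest at −0.72.

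Set side by side, the comparisons share no library. Of the 8 members with values in both, 5 had opposite signs, as did 50% of the 10867 genes measured in both. Cux1, Cux2, Pou3f2 and Lhx2 were lower with added Fezf2 and higher in the library labelled knockout, a pattern of 23.9% of genes. Rorb was higher with added Fezf2 and lower in that library, a pattern of 26.1% of genes. Pou3f3 and Mef2c were lower in both, like 23.6% of genes. Lmo4 was counted with them by sign only, since its P0 interval includes 0. The median P0 log2 ratio of the members was 0.08, against 0.01 for all genes with at least 5 CPM. The groups differ in strain, age, tissue and kit, and none of the 8 sorted-cell differences paired here passed the test across genes.

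Other genes of callosal and upper-layer neurons, listed separately, had a median log2 fold change of −0.00 between Fezf2 and GFP cells. That median was −0.33 for the members and −0.19 for the 12 genes of the glutamatergic list. Of 23 tested, 12 were below 0 and 11 above, and none passed. The 3 with the smallest p were Mdga1, an adhesion gene of upper-layer neurons, at −0.59, the ephrin receptor gene Epha3 at −0.92 and Limch1 at −0.36, each with an edgeR adjusted p = 0.729. At P0, 13 of 24 were lower in the library labelled knockout and 6 passed 1.5-fold, 2 lower and 4 higher, against 6.73% and 4.76% of all genes. Lpl, a lipase gene, had a log2 ratio of 1.33, Mdga1 1.22 and Bhlhe22, a factor of area identity, −1.16.

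Relatives and cofactors of the members gave no called gene either. Of 22 such genes 15 were tested, 8 above 0 and 7 below, with a median log2 fold change of 0.08. The 3 with the smallest p were Onecut2, a Cut-homeodomain relative, at −1.08, the LIM-domain-binding cofactor Ldb2 at 0.52 and the POU gene Pou6f1 at −0.36. At P0, 10 of 14 were lower in the library labelled knockout and none passed 1.5-fold, where 11.5% of all genes did. Among deep-layer factors only the introduced Fezf2 passed. Of the 13 others, 10 were above 0 and 3 below, where 47.1% of all genes lay below 0, and their median log2 fold change was 0.22. The 3 below 0 were Id2 at −0.75, Tbr1 at −0.49 and Bcl11a at −0.35. Id2 had the smallest p of the 13 (unadjusted p = 0.00178 and adjusted p = 0.719 by edgeR). In the P0 pair, with 1 library a side, 10 of 12 others were lower in the library labelled knockout, where the median of all genes was 0.01. Of these, 5 were past 1.5-fold lower, as were 6.73% of all genes. Foxp2 had the lowest log2 ratio at −2.05, followed by the corepressor gene Tle4 at −1.94 and Zfpm2 at −1.70, all 3 marking corticothalamic layer 6 neurons.

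**Figure D5:**
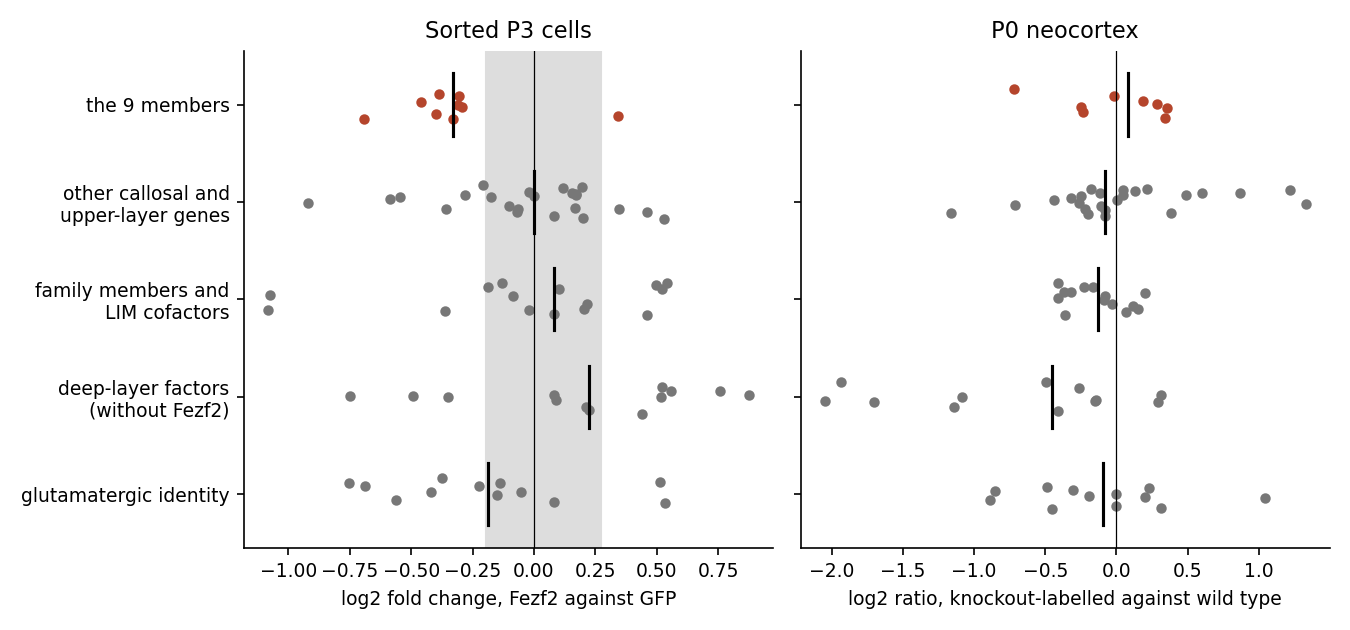
Log2 fold change in sorted P3 cells (left, Fezf2 against GFP) and log2 ratio at P0 (right, labelled knockout against wild type). Each point is a gene, black bars are list medians and the grey band spans the quartiles of all tested genes, −0.20 to 0.27; the median of the 9 members is −0.33 on the left, and the deep-layer row leaves out Fezf2.

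Levels can be compared between genes only per length. TMM-scaled CPM was divided by the gene length in kb that the deposited P0 RPKM implies, which exists for 8 members and not for Pou3f1. In GFP cells the median level was 253 CPM per kb for Mef2c (range 232 to 259), 107 for Pou3f3 (106 to 127) and 58.7 for Lhx2 (53.0 to 61.4). Cux1 followed at 43.6 (40.7 to 44.3) and Cux2 at 43.0 (41.8 to 43.4). Below them came Lmo4 at 36.7 (33.1 to 37.5), Pou3f2 at 20.5 (18.6 to 24.8) and Rorb at 10.7 (8.01 to 11.6). Ranges of neighbours in this order did not overlap except for Cux1 and Cux2, which could not be ranked with the second Cux2 row left out. Fezf2 cells had medians of 196 for Mef2c, 74.5 for Pou3f3, 41.0 for Lhx2, 31.8 for Cux1, 32.3 for Cux2, 29.3 for Lmo4, 15.7 for Pou3f2 and 12.9 for Rorb. In wild-type P0 neocortex Mef2c (243 CPM per kb), Pou3f3 (127) and Lhx2 (67.8) again led, and Lmo4 (54.9) stood above Cux2 (34.7) and Cux1 (32.5). Pou3f2 was at 32.1 there and Rorb at 9.41. In the deposited RPKM, which for sorted cells came from another count, Pou3f1 had a GFP median of 6.37, between Pou3f2 (8.30) and Rorb (3.89). There the GFP ranges of Pou3f2 and Pou3f1 overlapped, as did those of Lhx2 and Cux1, Cux1 and Cux2, and Cux2 and Lmo4. Within libraries these neighbours kept their order in all 3 GFP libraries, except Cux1 and Cux2, in 2.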

How the data were processed

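Raw counts per gene for 10 RNA libraries and RPKM values for the same libraries were deposited by the authors. Per the submitters' processing notes, the aligners STAR 2.4.0e and Bowtie 0.12.5, the counter HTSeq 0.6.1, the peak caller MACS2 2.0.9, FastQC, SAMtools and build mm9 were used. Tools were not tied to steps, and annotation and strand setting are not given in the sources used here. Reads were single, 75 bp, per the labels. At P0 the deposited RPKM followed from the counts; in sorted libraries they were 0.254 to 0.455 of the count-based value (median ratio per library), so counts were used.

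Counts were tested with edgeR 4.0.16 in R 4.3.3 (TMM scaling, the filterByExpr filter, the robust quasi-likelihood F test, and adjustment by Benjamini-Hochberg over all 13754 genes with a limit of 0.05), on the 5 Fezf2 and 3 GFP libraries, after a test on simulated data. SE is the absolute log2 fold change over the square root of F. Log2 CPM used a prior count of 2. P0 ratios used 1 library a side. Ratios and correlations used exact permutation tests (SciPy 1.17.1). Alternatives used DESeq2 1.42.0, RLE factors, no filter, limma 3.58.1 on log2(RPKM + 0.1), and left-out libraries.

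All 9 members are reported. From each other list the genes that passed, otherwise the 2 or 3 with the smallest p, and the 2 or 3 largest P0 ratios could be named, as could the 2 genes most correlated with each member; some genes that the rule names are not reported here. The members and the 14 gene lists were chosen with earlier results of these data known. The peak lists of 3 ChIP-seq libraries were not used here. Intervals on counts cover counting error only.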

Additional observations from a re-analysis of the deposited data

Results flagged for a closer look

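The summed level of the 24 other callosal and upper-layer genes was 5800 CPM in Fezf2 replicate 1 and 4038 to 4510 CPM in the other 4 Fezf2 libraries. The gap between replicate 1 and its nearest neighbour was 0.732 of the whole range of the group, above the 95% critical value of Dixon's test for 5 libraries, 0.71. The same replicate held the highest Cux1 and Cux2 levels, the lowest astrocyte marker sum and the lowest mean correlation with the other libraries, 0.904. Of 27 groups of values examined this way 1 was set apart, about as many as chance alone gives at this level.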

How the results depend on the processing

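Across 18 alternatives for each member, Cux2 alone changed direction in the sorted comparison, to 0.047 without Fezf2 replicates 2, 4 and 5, and Pou3f3 alone passed the limit, with DESeq2 (−0.69) and with no filter (−0.70). The number of genes called, 2 in the main analysis, was 6 with DESeq2 (4376 genes had an adjusted p), 117 with no low-count filter (79 higher, 38 lower), 1 with sex as a covariate, and 1 to 2 with 1 library left out. Sex was inferred from the Xist level of each library. Cux2/Cux1 turned to 0.17 without Fezf2 replicates 2, 4 and 5. Leaving out 1 library, the ratio differences ran from −0.24 to −0.04 for Cux2/Cux1, −0.38 to −0.10 for Pou3f3/Pou3f2, −0.33 to −0.14 for Pou3f3/Pou3f1 and −0.23 to 0.14 for Pou3f2/Pou3f1, which turned positive without Fezf2 replicate 3 (0.14), Fezf2 replicate 4 (0.06) or GFP replicate 2 (0.08). The causes were not tested. With limma on deposited RPKM the median of all genes was 0.12, so values there are read against it. No alternative moved a P0 member out of its counting interval.

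The labels do not say whether equal replicate numbers mark a shared litter or day. Deviations of same-numbered libraries from their group means correlated at −0.05, −0.01 and −0.05, and so few pairs cannot decide this. With the replicate block over replicates 1 to 3, 10 genes were called (1 higher, 9 lower), against 6 (1 higher, 5 lower) without the block on the same libraries, a fit added after seeing the data. Under the block the Cux2/Cux1 difference was 0.063 and Pou3f2/Pou3f1 0.030, with a smallest possible p of 0.25.

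With 3 GFP libraries, 1 library on each side at P0 and 3245932 to 5801839 counts per sorted library, differences of the size seen for Cux1, Cux2, Lhx2 or Mef2c could not be told from 0 across all genes.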
